A study of Mus musculus with 36 samples.

Results

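The step from 2.5 to 4 weeks of age was measured on 4 of the 36 dual-channel arrays of the series, those with muscle cRNA of a 4-week-old mouse in Cy5 and of a 2.5-week-old mouse in Cy3. The arrays were picked by these ages, and this step was chosen with earlier results of these data known. There were 2 arrays of beta-sarcoglycan-deficient (BSG) mice and 2 of gamma-sarcoglycan-deficient (GSG) mice, so that 4 mice of 4 weeks were set against 4 mice of 2.5 weeks. RNA came from the quadriceps, a muscle of the thigh. All mice lacked a sarcoglycan and there was no wild-type array among those analysed here, so a change with age cannot be told apart from a change with disease. By the study's methods, the series had 2 mice per age and strain, littermates at most ages, and the arrays of a strain formed 2 closed loops in which each mouse was hybridised against the next age and the previous one.

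The sarcoglycans are membrane proteins of muscle fibres that form a subcomplex of the dystrophin-associated complex, which links the cytoskeleton to the matrix around the fibre. Without it fibres are easily damaged, and muscle goes through rounds of necrosis, entry of macrophages and regeneration. In mice the first rounds fall around weaning, in the weeks that these arrays span. Macrophages reach damaged muscle in answer to chemokines, small secreted proteins that act on receptors of white blood cells.

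A value is the log2 ratio of the 4-week over the 2.5-week mouse, averaged over the duplicate spots of an oligonucleotide. A value of 1 is a doubling with age. The base and direction of the deposited ratios were not stated. The direction used here is likely, since *Dlk1*, an imprinted gene that muscle loses after birth, had negative values on every array from 1 to 4 weeks. A mean of the 4 arrays is given with its limma standard error, and a gene was said to rise or fall where its adjusted p (Benjamini-Hochberg over 8129 oligonucleotides) was below 0.05. Each array holds 2 mice, and the number of mice limits the precision. Of the markers of muscle fibres, 3 were measured, of which *Acta1* and *Tnnt3* were above 0 on all arrays and *Ckm*, chosen after its values were seen, had -2.64, 0.77, -0.42 and 0.39. Ratios do not show how abundant a transcript is.

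The 4 arrays differed in quality. Duplicate spots correlated across oligonucleotides at 0.683 and 0.497 on the BSG arrays 1 and 2, and at 0.203 and 0.243 on the GSG arrays 1 and 2. The log2 ratios had SDs of 0.487 (BSG array 1), 0.246 (BSG array 2), 0.418 (GSG array 1) and 0.314 (GSG array 2). Between the arrays, the correlation across oligonucleotides ran from -0.026 for the BSG pair to 0.316 for BSG array 1 with GSG array 1, and it was 0.198 for the GSG pair. Oligonucleotides are not independent replicates, so these are descriptions. Because Cy5 held the older mouse on all 4 arrays, a gene that is read higher in Cy5 than in Cy3 looks like a rising gene. Such an offset can be estimated over the closed loops, and 2936 of 8129 oligonucleotides (36.1%) had one at an adjusted p below 0.05 in limma. The mean over the 32 other arrays, which sums a gene's changes nearly around the loops, is therefore given beside many results. It leaves out this step, so a true rise here lowers it. The fit of the loops with a dye term is also given. Its estimates equal those of the loop model without the term, which are the mean of the 4 arrays less that over all 36. The term changed only standard errors and adjusted p, so these values are not separate checks.

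Over both strains, 14 oligonucleotides rose (0.172%) and 6 fell (0.0738%) between 2.5 and 4 weeks. At an unadjusted p below 0.05 there were 505 higher (6.21%) and 480 lower (5.9%), and 825 (10.1%) were above 0 and 950 (11.7%) below 0 on all 4 arrays. The counts of each gene list below are to be read against these shares. Of the 20 that passed, 14 have a gene symbol, 11 of those that rose and 3 of those that fell. The genes that rose code for 2 proteins of inflammation (*Ccl2*, *Cd74*), a protein of migrating cells and macrophages (*S100a4*), 2 matrix proteins (*Col3a1*, *Mgp*), 2 near-identical tubulins (*Tuba1b*, *Tuba1c*), a growth factor (*Hbegf*), a transcription factor (*En1*), a protein of growing nerve endings (*Basp1*) and an enzyme of mRNA capping (*Rngtt*). The genes that fell were *Cldn5*, the tight junction protein of endothelial cells, *Sult1a1*, a sulfotransferase of phenols, and *Nfat5*, a transcription factor of the response to salt stress.

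*Ccl2* codes for the main chemokine that draws monocytes into damaged tissue. Its log2 ratios were 3.68 and 2.25 on the BSG arrays, and 1.12 and 1.38 on the GSG arrays. Both strains were high, and the BSG values were above the GSG values without overlap. With 2 arrays a strain, such separation is common by chance, so here and below it is a description. The test of the strain difference found 1 of 8129 oligonucleotides. The mean of 2.11 ± 0.46 was a 4.31-fold higher level at 4 weeks (limma, adjusted p = 0.0486). The difference between the strains, GSG minus BSG, was -1.72 ± 0.91 and did not pass (limma, adjusted p = 1.0). Over the 32 other arrays the mean of *Ccl2* was -0.07, and over all 36 it was 0.17.

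*S100a4*, a calcium-binding protein of macrophages, fibroblasts and other moving cells, had log2 ratios of 2.06, 1.78, 1.87 and 0.91 on BSG arrays 1 and 2 and GSG arrays 1 and 2. The strains overlapped, and GSG array 2 was the lowest. The mean was 1.66 ± 0.30, or 3.15-fold (limma, adjusted p = 0.0201). Its family members *S100a6* and *S100a11*, chosen after their values were seen, had means of 0.98 ± 0.25 and 0.52 ± 0.23 (adjusted p = 0.107 and 0.374), with all values above 0. Not all members were so even. The neutrophil marker *S100a9* had 1.31, 0.73, -0.02 and 0.05, and *S100a8* had 0.74, 0.17, 0.31 and 0.18 (limma, adjusted p = 0.736 and 0.656).

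*Cd74*, the invariant chain that guides MHC class II molecules to peptides in macrophages, dendritic cells and B cells, had log2 ratios of 0.56 and 0.56 in BSG and 1.47 and 1.13 in GSG. Here the GSG arrays lay above the BSG arrays without overlap. The mean was 0.93 ± 0.18 (limma, adjusted p = 0.0385), and GSG minus BSG was 0.74 ± 0.37 (adjusted p = 1.0).

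**Figure D1:**
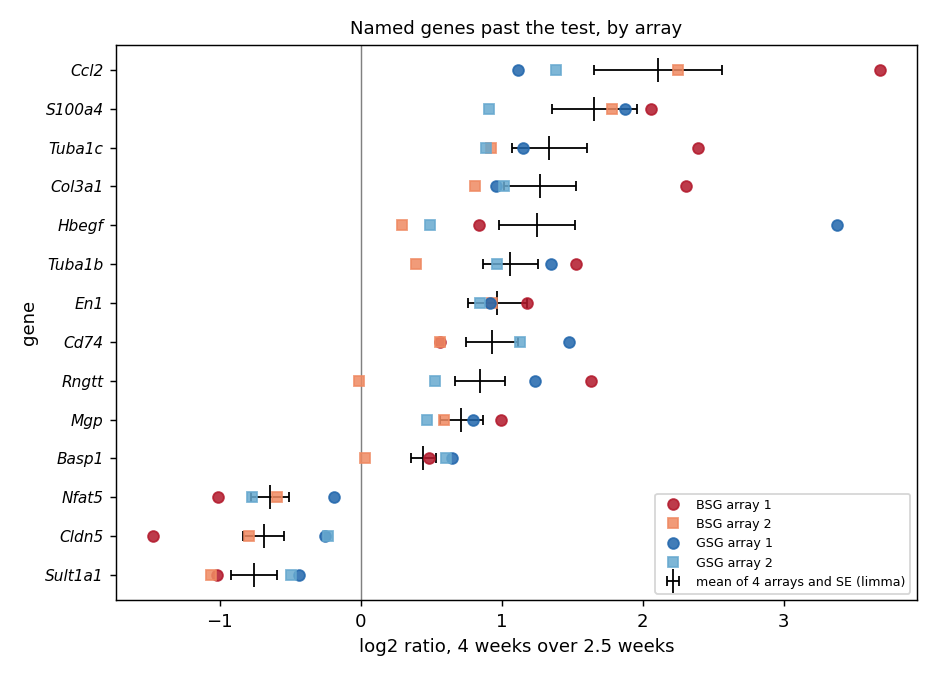
Log2 ratios of 4 over 2.5 weeks (x axis) of the 14 genes with a symbol that passed the test of the mean over both strains (y axis), with circles and squares for arrays 1 and 2 of BSG (red) and GSG (blue) and bars for the limma mean and standard error. All 4 values are on the same side of 0 except for Rngtt, and single arrays stand far from the others for Hbegf (3.38 on GSG array 1) and Ccl2 (3.68 on BSG array 1).

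*Col3a1*, the chain of type III collagen, had log2 ratios of 2.31, 0.81, 0.96 and 1.02, and a mean of 1.27 ± 0.26 (limma, adjusted p = 0.0394). BSG array 1 was more than 1 unit above the other arrays. *Mgp*, a matrix protein that binds calcium, had log2 ratios of 0.99, 0.59, 0.80 and 0.47. Its values overlapped between the strains, with a mean of 0.71 ± 0.15 (limma, adjusted p = 0.0477).

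The alpha-tubulins *Tuba1c* and *Tuba1b* had means of 1.34 ± 0.26 and 1.06 ± 0.19 (adjusted p = 0.0384 and 0.0201). Their log2 ratios were 2.39, 0.93, 1.15 and 0.89 for *Tuba1c*, and 1.53, 0.40, 1.35 and 0.96 for *Tuba1b*. Since their transcripts are nearly the same in sequence, a long oligonucleotide may bind both, and they cannot be counted as separate findings.

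*Basp1* had a mean of 0.44 ± 0.09 (limma, adjusted p = 0.0394), with 0.03 on BSG array 2. Its first spots read 0.89, 0.08, 1.51 and 1.41 and its second spots 0.08, -0.03, -0.21 and -0.19, so that the mean turned to -0.09 with second spots alone. *Hbegf*, a growth factor of the EGF family, passed (1.25 ± 0.27, adjusted p = 0.0486) through GSG array 1, where its spots read 6.06 and 0.69, against array values of 0.84, 0.29 and 0.49 on the others. Without that array its mean was 0.53 (adjusted p = 0.415). *Rngtt* was not above 0 on every array (1.63, -0.01, 1.24 and 0.53) and its duplicate spots were up to 2.33 apart. It is named because it passed, outside the rule for naming genes. *En1* had even log2 ratios of 1.18, 0.93, 0.92 and 0.85, but its mean over the 32 other arrays was 0.64. Its loop estimate was 0.29 with or without a dye term (limma, adjusted p = 0.731 with the term). Its rise cannot be told apart from a dye offset on these arrays alone.

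Among the genes that fell, *Sult1a1* had log2 ratios of -1.02 and -1.06 in BSG and -0.44 and -0.50 in GSG, without overlap of the strains. Its mean was -0.76 ± 0.16 (limma, adjusted p = 0.0486). *Cldn5* had log2 ratios of -1.48 and -0.79 in BSG and -0.25 and -0.23 in GSG, and its mean was -0.69 ± 0.14 (limma, adjusted p = 0.0469). The fall was thus larger on both BSG arrays for both genes, while GSG minus BSG did not pass the test (*Cldn5* 0.89 ± 0.29, adjusted p = 0.863; *Sult1a1* 0.57 ± 0.32, adjusted p = 1.0). *Nfat5* was negative throughout (-1.01, -0.59, -0.19 and -0.77), but so was its mean over the 32 other arrays (-0.56), and 1 of its 3 oligonucleotides had a mean of the other sign. Its loop estimate was -0.08 with or without a dye term (limma, adjusted p = 0.947 with the term).

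The lower direction was filled up with the genes of smallest p among those below 0 on all arrays, which did not pass: *Prss8* (-0.49 ± 0.11), *Galnt4* (-0.59 ± 0.14), *Thra* (-0.56 ± 0.14), *Trp53bp1* (-0.42 ± 0.10) and *St14* (-0.54 ± 0.14), with adjusted p from 0.0538 to 0.106. *Thra* codes for a receptor of thyroid hormone, and *Prss8* and *St14* code for membrane serine proteases. The mean over the 32 other arrays was -0.56 for *Galnt4* and -0.24 for *Prss8*, but 0.17 for *Thra*.

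When the loops were fitted with a dye term, *Cldn5* (-0.85, adjusted p = 0.0109) and *Sult1a1* (-0.78, adjusted p = 0.0401) kept their call. None of the 11 rising named genes did, although the estimates stayed large for *Ccl2* (1.94, adjusted p = 0.0732), *S100a4* (1.33, adjusted p = 0.0604) and *Col3a1* (0.99, adjusted p = 0.1). They were 0.95 for *Tuba1c*, 0.66 for *Cd74*, 0.65 for *Tuba1b* and 0.47 for *Mgp* (limma, adjusted p = 0.126, 0.136, 0.186 and 0.21). Over the 32 other arrays these genes had means of 0.268, 0.187, 0.325 and 0.183, in the same order. In the loop model without a dye term, and with the 4 arrays alone, 0 of the 14 named genes passed, and *Cldn5* and *Sult1a1* had an adjusted p of 0.0843 each in the former. Without BSG array 1 none of the 14 passed, without GSG array 1 *Nfat5* did, without GSG array 2 there were 8, and without BSG array 2 all 14 passed. Some means hardly moved without BSG array 1, such as that of *Cd74* (0.93) and *S100a4* (1.59), while *Col3a1* went to 0.90 and *Rngtt* to 0.43.

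The genes of inflammation that the study singled out were examined together with other genes of macrophages. The study chose this list on a series that holds these arrays, so it is not independent evidence of a direction. Of its 11 genes, each with 1 oligonucleotide, 2 rose (*S100a4* and *Cd74*) and 9 did not pass. All 11 were above 0 on all 4 arrays, against 10.1% of all oligonucleotides. The median of the list was 1.16, and -0.01 over all oligonucleotides. By array the list medians were 1.39 and 0.91 in BSG and 1.40 and 0.99 in GSG, so that the strains overlapped. With a dye term the median was 1.01, and over the 32 other arrays it was 0.08. The median offset estimated over the full loops was 0.2. In whole muscle, more cells of a type and more RNA per cell cannot be told apart.

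The strongest of those that did not pass were a receptor of fungal glucans on phagocytes, *Clec7a*, and chemokines of macrophages. *Clec7a* had log2 ratios of 1.45, 0.90, 2.14 and 1.00, with a mean of 1.37 ± 0.31 (limma, adjusted p = 0.0646). *Ccl8* had log2 ratios of 0.94, 1.45, 1.48 and 0.99, with a mean of 1.22 ± 0.28 (adjusted p = 0.07). *Ccl6* had 3.26 and 0.74 in BSG against 1.74 and 0.67 in GSG, and a mean of 1.60 ± 0.37 (adjusted p = 0.0729). For each of them the strains overlapped.

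*Ccl9* (1.16 ± 0.27), the pore-forming *Mpeg1* (1.24 ± 0.32), the lysosomal *Laptm5* (0.85 ± 0.24), lysozyme *Lyz1* (1.14 ± 0.35), the receptor *Sirpa* (1.14 ± 0.35) and galectin *Lgals3* (1.11 ± 0.38) had adjusted p from 0.0729 to 0.233. By array *Lyz1* had 0.59, 1.37, 1.04 and 1.57. Its close paralog *Lyz2*, which is not among the study's genes and was chosen after its values were seen, had 0.34, -0.06, 0.19 and 0.03 (0.13 ± 0.12, adjusted p = 0.714). The signals of such paralogs are uncertain where their sequences are alike.

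**Figure D2:**
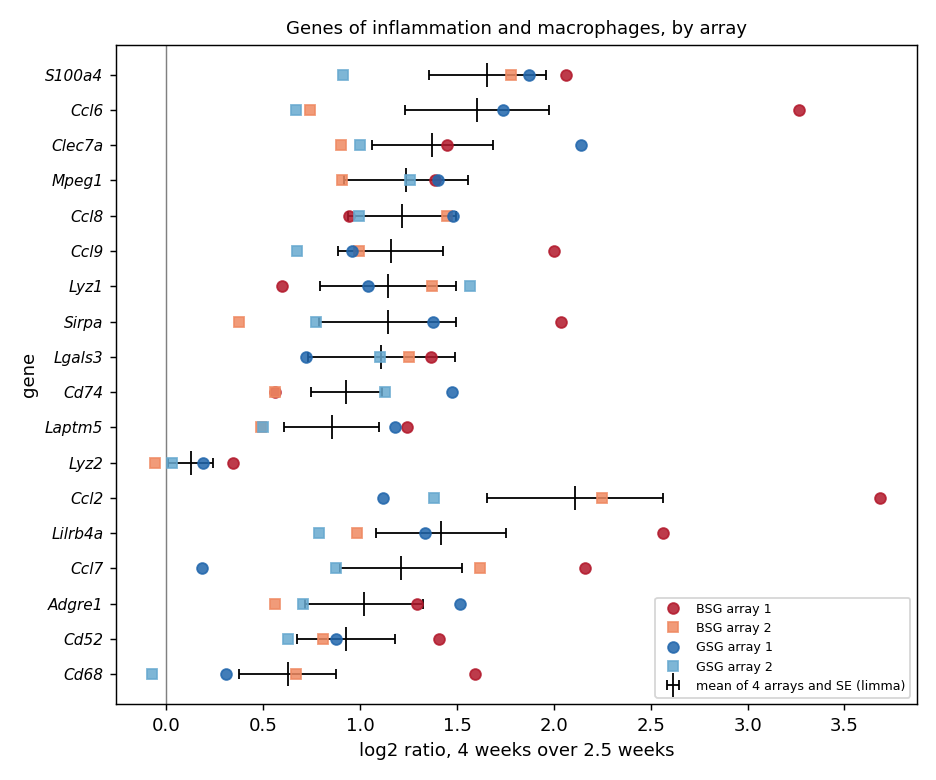
Log2 ratios of 4 over 2.5 weeks (x axis) of the 11 inflammation genes of the study and of 7 other genes of macrophages and chemokines (y axis), by array, with the limma mean and standard error. All arrays are above 0 except for Lyz2 (-0.06 on BSG array 2) and Cd68 (-0.07 on GSG array 2). Of the 7, Lyz2, Lilrb4a, Ccl7, Adgre1 and Cd68 were chosen after their values were seen.

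Among 35 oligonucleotides of macrophages and phagocytes, 14 were above 0 and 2 below 0 on all 4 arrays (40.0% above, against 10.1% of all), 14 were higher and 1 was lower at an unadjusted p below 0.05, and 0 passed the adjusted test. The median was 0.27, and some members, such as *Clec7a* and *Lyz1*, are in the list of the study too. *Cd52*, a surface protein of leukocytes, had log2 ratios of 1.41, 0.81, 0.88 and 0.63 (0.93 ± 0.25, adjusted p = 0.129). Of the markers that define macrophages, *Adgre1* (the F4/80 antigen) had a mean of 1.02 ± 0.30 and *Cd68* of 0.63 ± 0.25 (adjusted p = 0.16 and 0.301). Both were chosen after their values were seen. By array, *Adgre1* had log2 ratios of 1.29, 0.56, 1.52 and 0.70, and *Cd68* of 1.59, 0.67, 0.31 and -0.07. Over the 5 marker oligonucleotides of macrophages the medians were 0.64, 0.67, 0.36 and 0.46, and 2 were above 0 on all 4 arrays. The markers *C1qa* (-0.03, 0.84, 1.13 and 0.98) and *C1qb* (0.11, -0.01, 0.32 and 0.12) were not.

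Lists of other white blood cells had medians near 0. Of 26 oligonucleotides of T, B and NK lymphocytes, 1 was above 0 on all arrays, 0 were higher at an unadjusted p below 0.05 and the median was 0.01. Of 17 of neutrophils and mast cells, 1 was above 0 and 3 were below 0 on all arrays, with a median of -0.09. The member with the lowest p was *Tpsb2*, a mast cell protease (-0.37 ± 0.11, adjusted p = 0.178), whose mean over the 32 other arrays was -0.23. The difference between these lists and that of macrophages was not tested.

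Of 47 oligonucleotides of chemokines and their receptors, 1 rose (*Ccl2*), 8 were above 0 (17.0%) and 5 below 0 (10.6%) on all arrays, and the median was 0.06. The high values were therefore those of a few members. *Ccl7*, another chemokine of monocytes, chosen after its values were seen like *Ccl11* and *Ccl12*, had log2 ratios of 2.16 and 1.62 in BSG and 0.18 and 0.87 in GSG. The BSG values were higher without overlap, and GSG minus BSG was -1.36 ± 0.63 (limma, adjusted p = 1.0), with a mean of 1.21 ± 0.32 (adjusted p = 0.107). *Ccl11* and *Ccl12* had means of 0.36 ± 0.17 and 0.39 ± 0.20 (adjusted p = 0.384 and 0.439). *Tnf*, the cytokine of activated macrophages, had log2 ratios of 1.09, 0.33, 1.08 and 0.14 (0.66 ± 0.15, adjusted p = 0.0751), and *Lilrb4a*, an inhibitory receptor of myeloid cells, 2.57, 0.99, 1.33 and 0.79 (1.42 ± 0.34, adjusted p = 0.0751). Both were also chosen after their values were seen.

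The deposited table names genes but holds no probe sequence. To show regulatory sequence of genes on which these results turn, the 250 bases before the annotated start were taken from RefSeq (GRCm38.p6), which held such a sequence for 10 of the 14 named genes that passed and for 3 of the 5 chemokine genes *Ccl2*, *Ccl6*, *Ccl7*, *Ccl8* and *Ccl9*. Capitals mark the letters TATAAA, known as the TATA box. They also mark the AP-1 letters TGANTCA, where N is any base, and an NF-kB motif of 10 bases. All were searched on both strands. Of 32536 windows of this length, 12.3% held the first, 6.73% the second and 1.4% the third. *S100a4* (chr3:90603520-90603769, plus strand) and *Ccl8* (chr11:82114935-82115184, plus strand) stand for the genes with higher values, of which *Ccl8* did not pass. *Ccl9* (chr11:83578637-83578886, minus strand) stands for the window with the most matches among the few searched, and *Cldn5* (chr16:18776597-18776846, plus strand) for the genes that fell.
S100a4: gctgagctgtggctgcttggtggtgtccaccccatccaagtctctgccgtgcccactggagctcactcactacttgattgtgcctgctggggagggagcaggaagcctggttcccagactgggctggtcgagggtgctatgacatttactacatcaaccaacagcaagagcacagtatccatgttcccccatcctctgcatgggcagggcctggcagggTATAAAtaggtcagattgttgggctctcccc
Ccl8: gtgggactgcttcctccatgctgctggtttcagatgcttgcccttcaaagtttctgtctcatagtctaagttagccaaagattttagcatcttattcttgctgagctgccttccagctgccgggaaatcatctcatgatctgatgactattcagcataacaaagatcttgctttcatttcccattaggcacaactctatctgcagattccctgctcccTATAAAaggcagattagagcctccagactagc
Ccl9: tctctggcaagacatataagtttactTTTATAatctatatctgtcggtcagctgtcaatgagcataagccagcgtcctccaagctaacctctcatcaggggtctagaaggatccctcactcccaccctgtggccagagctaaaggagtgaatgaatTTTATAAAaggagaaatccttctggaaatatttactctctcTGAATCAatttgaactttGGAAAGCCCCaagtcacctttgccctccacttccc
Cldn5: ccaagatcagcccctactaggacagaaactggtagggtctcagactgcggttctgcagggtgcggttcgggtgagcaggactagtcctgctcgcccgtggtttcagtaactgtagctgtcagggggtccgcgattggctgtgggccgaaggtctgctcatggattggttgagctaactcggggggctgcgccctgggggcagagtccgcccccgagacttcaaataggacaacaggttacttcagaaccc
The TATA letters began 31 bases before the start in *S100a4* and 32 bases before it in *Ccl8*. The *Ccl9* window held 5 matches, with AP-1 letters beginning 53 bases and NF-kB letters 35 bases before the start, and 2 of its TATA matches overlapped on opposite strands. The *Cldn5* window held none of these letters. Among the windows searched but not printed, that of *Sult1a1* held none, and in that of *Col3a1* TATA letters began 117 bases before the start. A match is a string of letters and shows no binding.

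Genes of antigen presentation, complement and the interferon response were also examined. Of 10 oligonucleotides of antigen presentation 1 rose (*Cd74*) and 3 were above 0 on all arrays, among them *B2m*, the light chain of MHC class I (0.70, 0.49, 1.34 and 0.85; mean 0.84 ± 0.28, adjusted p = 0.21), and *Ctss*, the protease that trims the invariant chain (1.02, 1.20, 0.28 and 0.68; mean 0.80 ± 0.31, adjusted p = 0.296). The list median was -0.06, so the other members did not share these values. Of 20 oligonucleotides of complement, 3 were above and 0 below 0 on all arrays, with a median of 0.11 and with *Clu*, a regulator of complement lysis, at 0.72 ± 0.19 (adjusted p = 0.107). Of 26 of the interferon response, 6 were above (23.1%) and 1 below 0 (3.85%) on all arrays, with a median of 0.17. The member with the lowest p was *Irf5*, an interferon regulatory factor of macrophages (0.60 ± 0.20, adjusted p = 0.21). Beyond *Cd74*, no oligonucleotide of these 3 lists passed.

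The collagens did not rise as a group. Of 29 oligonucleotides 1 rose (*Col3a1*), 4 were above and 3 below 0 on all arrays, and the median was -0.03. *Col5a3* (0.39 ± 0.13) and *Col5a2* (0.55 ± 0.20) had adjusted p of 0.225 and 0.281, and the fibroblast marker *Col1a1* had log2 ratios of -1.83, -0.47, 0.35 and 0.44. Of 50 other matrix oligonucleotides 8 were above (16.0%) and 3 below 0 (6.0%) on all arrays, with a median of 0.02. Here *Bgn*, the proteoglycan biglycan, had log2 ratios of 1.05, 0.43, 1.17 and 0.65 (0.82 ± 0.21, adjusted p = 0.107), and *Tnc*, a matrix protein of repair, had 0.84, 0.38, 0.32 and 0.73 (0.57 ± 0.22, adjusted p = 0.287).

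Of the 28 matrix proteases and inhibitors 1 was above and 8 below 0 on all arrays, with a median of -0.08. *Timp1*, an inhibitor of matrix proteases, was the one above 0, with log2 ratios of 2.12, 1.07, 0.81 and 0.84 (1.21 ± 0.28, adjusted p = 0.0751). *Timp4*, an inhibitor of the same family, had -0.16, -0.45, -0.19 and -0.93 (-0.43 ± 0.15, adjusted p = 0.239). Opposite signs within the family were thus seen on every array.

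Regulators of muscle regeneration had a median of 0.02, with 5 of 39 oligonucleotides above and 5 below 0 on all arrays and 0 past the test. *Lif*, a cytokine that acts on muscle precursor cells, had 0.40 ± 0.13 and *Myog*, the transcription factor of differentiating myoblasts, 0.30 ± 0.10 (adjusted p = 0.207 and 0.232). *Tnnt2*, the cardiac troponin T that embryonic and regenerating muscle also makes, had log2 ratios of 0.72, 0.63, 1.44 and 0.64 (0.86 ± 0.21, adjusted p = 0.101). Of 53 oligonucleotides of the cell cycle, 8 were above (15.1%) and 2 below 0 (3.77%) on all arrays, and 1 was higher at an unadjusted p below 0.05. *Btg2*, an inhibitor of proliferation from a list of growth arrest genes (median 0.06), had 1.96, 0.73, 1.34 and 0.78 (1.20 ± 0.27, adjusted p = 0.054).

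Contractile genes of slow fibres had a median of 0.38, and 4 of 12 oligonucleotides were above and 2 below 0 on all arrays, with 0 past the test. *Tnnt1*, the slow troponin T, had log2 ratios of 1.73, 0.64, 2.03 and 0.21 (1.15 ± 0.38, adjusted p = 0.21). *Atp2a2*, the calcium pump of slow and cardiac fibres, had 1.48, 0.20, 1.78 and 0.31 (0.94 ± 0.28, adjusted p = 0.161). In both strains array 1 was the higher one for these genes. *Casq2*, the cardiac calsequestrin, and *Myoz2*, a protein of the Z-disc, had means of 0.61 ± 0.23 and 0.60 ± 0.28 (adjusted p = 0.287 and 0.392). The median of the list was 0.29 with a dye term and 0.12 over the 32 other arrays.

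Contractile genes of fast fibres had a median of 0.27, with 5 of 11 oligonucleotides above and 1 below 0 on all arrays. Here the 32 other arrays had a median of 0.37, and the estimate with a dye term was -0.09. *Tcap*, the telethonin of the Z-disc, had -0.25, 0.47, 0.87 and 0.75, and *Tnnc2*, the fast troponin C, had 0.52 ± 0.20 on these arrays and 0.60 on the others. Of the fibre markers, *Ckm*, the muscle creatine kinase, ranged from -2.64 on BSG array 1 to 0.77 on BSG array 2, so the BSG arrays lay at both ends of the range.

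The dystrophin-associated complex had a median of 0.02, with 3 of 23 oligonucleotides above and 0 below 0 on all arrays. *Sgcb*, the gene that the BSG mice lack, had log2 ratios of -0.74 and -0.35 in BSG and 0.03 and 0.01 in GSG. The strains did not overlap, but neither the mean (-0.26 ± 0.14, adjusted p = 0.479) nor GSG minus BSG (0.56 ± 0.29, adjusted p = 1.0) passed. A ratio between 2 mice of the same strain does not show the loss of the gene.

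Genes of energy metabolism were examined in 3 lists. Of 39 oligonucleotides of glycolysis and glycogen, 11 were below 0 and 2 above 0 on all arrays (28.2% below, against 11.7% of all), with a median of -0.17 and 0 past the test. *Tpi1*, triosephosphate isomerase, had -0.81, -0.27, -0.35 and -0.24 (-0.42 ± 0.12, adjusted p = 0.151), and *Slc16a3*, the lactate exporter of fast fibres, had -0.73, -0.28, -0.01 and -0.58 (-0.40 ± 0.12, adjusted p = 0.151). BSG array 1 was the lowest for both. By array the list medians were -0.36 and -0.02 in BSG and -0.06 and -0.13 in GSG. The median was -0.30 with a dye term, and 0.16 over the 32 other arrays.

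Of 28 oligonucleotides of fatty acid use 5 were below (17.9%) and 1 above 0 on all arrays, with a median of -0.05. *Mlycd*, which degrades malonyl-CoA, had -1.22, -0.41, -0.36 and -0.45 (-0.61 ± 0.17, adjusted p = 0.14), and *Acadvl*, an enzyme of beta-oxidation, had -0.51, -0.31, -0.75 and -0.47 (-0.51 ± 0.22, adjusted p = 0.344). *Pdk4*, the kinase that shuts pyruvate out of the citric acid cycle, had 1.53, 0.15, 0.70 and 0.15 (0.64 ± 0.28, adjusted p = 0.347). The respiratory chain and citric acid cycle had 4 of 38 oligonucleotides below (10.5%) and 1 above 0 on all arrays, with a median of -0.07, which rested on BSG array 1 (-0.35, against 0.10, -0.01 and -0.05). Without that array the median was 0.06.

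**Figure D3:**
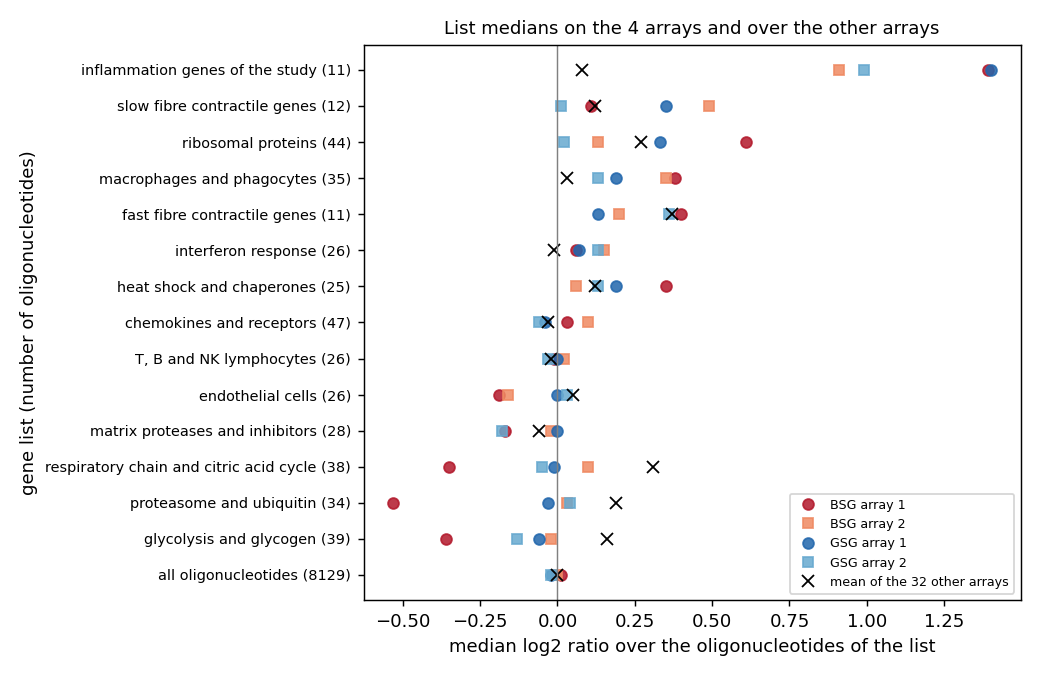
Median log2 ratio of 4 over 2.5 weeks (x axis) over the oligonucleotides of 14 gene lists and over all oligonucleotides (y axis, number in brackets), by array, with crosses for the median of the means over the 32 other arrays. The inflammation genes of the study lie at 0.91 or above on every array and at 0.08 over the others, whereas the ribosomal proteins lie at 0.61, 0.13, 0.33 and 0.02, on both sides of their median over the others (0.27).

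Ribosomal proteins had a median of 0.28, and 20 of 44 oligonucleotides were above and 1 below 0 on all arrays (45.5% above). The same oligonucleotides had a median of 0.27 over the 32 other arrays, and -0.01 with a dye term. *Rpl10* (0.61 ± 0.21), *Rpl27a* (0.54 ± 0.20) and *Rps26* (0.47 ± 0.17) had adjusted p from 0.239 to 0.269, and *Rpl22* had -2.05 on GSG array 2 against -0.17, -0.29 and -0.07 on the others.

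Stress genes were above 0 more often than below. Of 25 oligonucleotides of heat shock proteins and chaperones 8 were above and 1 below 0 on all arrays, with a median of 0.15 here, 0.12 over the 32 other arrays and 0.07 with a dye term. *Hspb1*, a small heat shock protein of muscle, had 1.22, 0.49, 0.82 and 0.45 (0.74 ± 0.18, adjusted p = 0.0917). Of 34 of metallothioneins and antioxidants 10 were above and 1 below 0 on all arrays (29.4% above). The median was 0.11 here, 0.13 over the others and 0.02 with a dye term. *Srxn1*, sulfiredoxin, had 1.67, 0.22, 0.40 and 0.54 (0.70 ± 0.18, adjusted p = 0.101). In both, BSG array 1 was the highest.

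Endothelial genes had a median of -0.09 over 26 oligonucleotides, of which 1 was above and 3 below 0 on all arrays, and 6 were lower and 2 higher at an unadjusted p below 0.05. *Pecam1* owed its mean of -0.81 ± 0.22 (adjusted p = 0.132) to GSG array 1 (-2.44, against -0.36, -0.38 and -0.06), where its spots read -4.46 and -0.43. *Tie1*, a receptor of the vessel wall, and *Cdh5*, its junction cadherin, had means of -0.24 ± 0.09 and -0.34 ± 0.14 (adjusted p = 0.254 and 0.306). The other endothelial markers had values of both signs: *Kdr* had -0.23, -0.37, 0.41 and 0.24, and *Tek* had 0.33, -0.73, 0.05 and -0.19. *Icam1*, the adhesion molecule on which leukocytes leave the vessel, had 0.59, 0.19, 0.61 and 0.44 (0.46 ± 0.14, adjusted p = 0.19). None of these passed, and *Cldn5* was not on the list.

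Of the imprinted genes, *Dlk1* and *Ndn*, both abundant in newborn muscle, were below 0 on all arrays. *Dlk1* had -0.91, -0.45, -0.52 and -0.33 (-0.55 ± 0.18, adjusted p = 0.21), and *Ndn* had -1.05, -0.69, -0.29 and -0.44 (-0.62 ± 0.20, adjusted p = 0.192). BSG array 1 was the lowest for both. *Meg3*, expressed from the other parental allele than *Dlk1*, had 1.22, -0.91, -0.15 and 0.12, so the BSG arrays had opposite signs. The list median over 31 oligonucleotides was -0.02.

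Of the genes driven by the time of day, *Dbp* had 0.80, 0.18, 0.48 and 0.84 (0.58 ± 0.16, adjusted p = 0.14) and *Arntl*, which peaks at the opposite time, -0.14, -0.85, -0.18 and -0.98 (-0.54 ± 0.17, adjusted p = 0.181). *Per1* had -0.07, -0.69, 0.33 and -0.21. The hour of death of each mouse is not known here. *Dpp4*, another gene of the study, had 0.13, -0.19, 0.25 and -1.0 (-0.20 ± 0.17, adjusted p = 0.677).

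Each strain was then taken apart. In BSG, 0 of 8129 oligonucleotides passed (0.0%), with 539 at an unadjusted p below 0.05 and a smallest adjusted p of 0.0858, that of *Cldn5* (-1.14 ± 0.20). In GSG, 24 were higher (0.295%) and 17 lower (0.209%). Of these 41, 27 had more than 1.5 in size on GSG array 1 and less than 1 on GSG array 2, and all 27 had duplicate spots at least 1 apart. They were not spread evenly: in the order of the table, which falls into 12 stretches of equal length, 13 lay in the 7th stretch and 7 in the 12th. *Braf* and *Ccl25* are examples of the former, at 3.41 and 3.14 on GSG array 1, with first spots of 6.54 and 6.00 and second spots of 0.28 and 0.28. *Kitl*, an example of the latter, had -2.99 there, with spots of -5.40 and -0.59. These 3 were chosen after their values were seen.

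**Figure D4:**
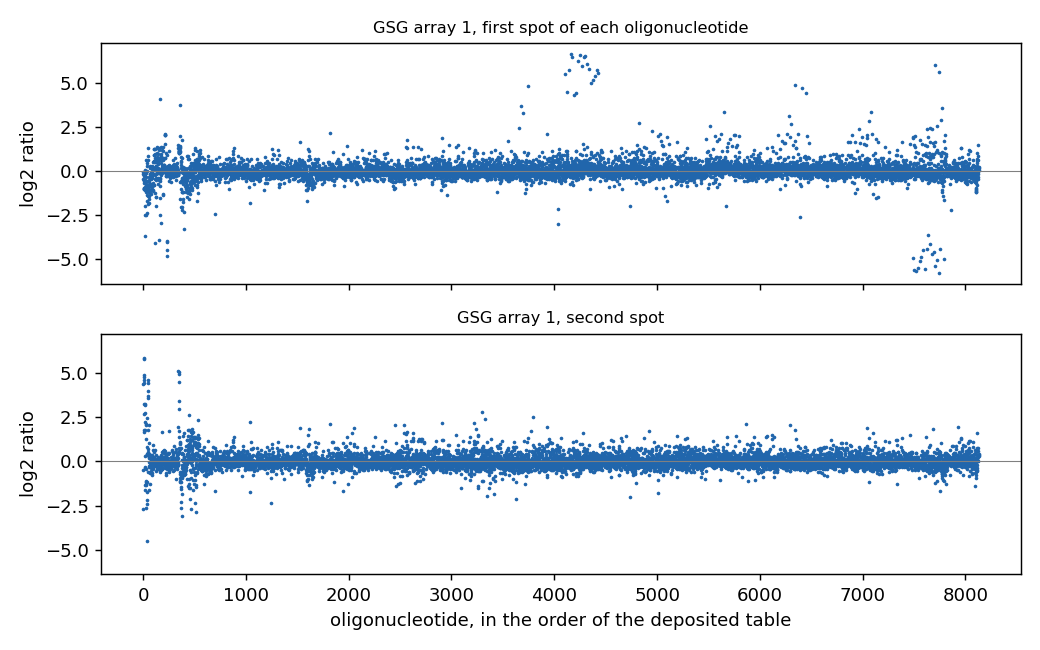
Log2 ratios of the first (top) and second (bottom) spot of each oligonucleotide on GSG array 1 (y axis), in the order of the deposited table (x axis). First spots form groups far above and far below 0 at a few places in the table where the second spots stay near 0, and at its start a group of second spots stands far above 0.

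When the test was confined to the 7053 oligonucleotides whose duplicate spots lay within 1 of each other on all 4 arrays, an alternative chosen after seeing the data, 1 passed in GSG and 0 in BSG. Over both strains 10 passed, among them 6 of the 14 named genes. Of the 14, 10 had spots that close and 4 did not.

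A test of GSG minus BSG found 1 oligonucleotide (0.0123%), that of *Lag3*, an inhibitory receptor of activated T cells. Its log2 ratios were -0.11 and -0.36 in BSG and 1.18 and 0.71 in GSG, a difference of 1.18 ± 0.19 (limma, adjusted p = 0.0244). The strains had opposite signs, but on GSG array 1 the spots of *Lag3* read -0.05 and 2.41, while on GSG array 2 they read 0.68 and 0.74. The call was lost in the loop model, with duplicateCorrelation, array weights, a replicate block, the 4 arrays alone, first spots alone or the filter on spots, and without BSG array 2 or GSG array 1. The next in order did not pass: *Kl* (1.05 ± 0.22), *Sec22b* (1.12 ± 0.24) and *Spdef* (-1.35 ± 0.29), each with an adjusted p of 0.173, *Tsg101* (1.87 ± 0.43, adjusted p = 0.327) and *Kcnn4* (0.67 ± 0.17, adjusted p = 0.612). Of these 5, *Kl*, *Sec22b* and *Tsg101* had spots more than 2 apart. With 1 call, the strains were not shown to differ otherwise, which does not show that they were alike.

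The step was compared with the steps before and after it. The 4 arrays of 2.5 against 1 week and those of 6 against 4 weeks share mice with the arrays of 4 against 2.5 weeks. Differences were therefore taken between neighbouring arrays of a loop, and limma was fitted to such differences over all loops. The fit took them as independent, although neighbouring differences share an array, so its adjusted p values are approximate. A constant dye offset cancels in such a difference. Compared with the preceding step, 3 oligonucleotides were higher (0.0369%) and 8 lower (0.0984%), 8 of the 11 with a symbol. Of the 11, 1 still passed without BSG array 1, 1 without GSG array 1 and 0 with the arrays of these ages alone.

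*Casq2* had log2 ratios of -0.96, -1.26, -1.51 and -0.59 from 1 to 2.5 weeks, and of 0.51, 0.69, 1.03 and 0.23 from 2.5 to 4 weeks. The sign turned on every pair of arrays, a difference of 1.69 ± 0.34 (limma, adjusted p = 0.0476). *Lrrn1*, a membrane protein with leucine-rich repeats, had -0.43, -1.22, -2.02 and -1.19 and then 1.38, 0.08, 1.41 and -0.01, a difference of 1.93 ± 0.33 (adjusted p = 0.0269). All values were below 0 before 2.5 weeks, and after it array 1 of each strain was high while array 2 was near 0.

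The 8 that were lower than in the preceding step had all been above 0 on the 4 arrays of 2.5 against 1 week. Their choice by this difference favours that sign. *Tpm3*, the slow tropomyosin, had a mean of 1.25 from 1 to 2.5 weeks and of -0.15 from 2.5 to 4 weeks, a difference of -1.41 ± 0.26 (limma, adjusted p = 0.0326). *Timp4* went from 0.87 to -0.43 (difference -1.30 ± 0.23, adjusted p = 0.0269), and *Pnpla2*, the lipase that opens the breakdown of triglycerides, from 0.85 to -0.37 (-1.22 ± 0.22, adjusted p = 0.0269). *Lynx1* (-1.20 ± 0.24), *Pitpna* (-0.84 ± 0.17) and *Ei24* (-0.63 ± 0.12) also passed, each at an adjusted p of 0.0476. For *Tpm3*, *Pitpna* and *Ei24* the difference lay in the earlier step, since their means from 2.5 to 4 weeks lay between -0.15 and 0.12.

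Compared with the following step, 0 oligonucleotides were higher (0.0%) and 17 lower (0.209%), with 1008 at an unadjusted p below 0.05, and 15 of the 17 have a symbol. Without BSG array 1, and with the arrays of these ages alone, 0 of the 17 passed. In this difference the level of the 4-week mice counts with both arrays. All 17 were above 0 on the 4 arrays of 6 against 4 weeks. Of them, 11 were below 0 on the 4 arrays of 4 against 2.5 weeks, as were 11.7% of all oligonucleotides. The 17 were chosen by this difference, which favours such signs, so the signs are no separate support. *Cldn5* had log2 ratios of -1.48, -0.79, -0.25 and -0.23 and then 1.18, 0.69, 0.80 and 0.01, a difference of -1.36 ± 0.20 (limma, adjusted p = 0.00428). *Sult1a1* had -1.02, -1.06, -0.44 and -0.50 and then 1.30, 0.50, 0.44 and 0.58 (-1.46 ± 0.22, adjusted p = 0.00428). Both genes were below 0 from 2.5 to 4 weeks and above 0 from 4 to 6 weeks on every loop, with *Cldn5* on GSG array 2 barely so.

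*Ly6c1*, a surface protein of endothelial cells and monocytes, had -0.79, -0.20, -0.39 and -0.02 and then 1.23, 0.83, 0.84 and 0.63 (-1.23 ± 0.21, adjusted p = 0.014). Enzymes of metabolism followed: *Ech1* of fatty acid oxidation (from -0.80 to 0.68), *Pnpla2* (from -0.37 to 0.85), *Sqor* of sulfide oxidation (from -0.19 to 0.81), *Tst* of the same pathway (from -0.23 to 0.55) and *Hsd11b1*, which regenerates active glucocorticoid (from 0.18 to 1.44), with adjusted p from 0.0147 to 0.0389. *Gde1*, *Adcy9* and *Chil3* also passed, with means of -0.02, -0.33 and -0.19 and then 0.68, 0.72 and 0.64. *Pnpla2* was the one oligonucleotide that passed in both comparisons. *Ech1*, *Tst*, *Hsd11b1*, *Adcy9*, *Chil3*, *Lynx1* and *Pitpna* were named after their values were seen.

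**Figure D5:**
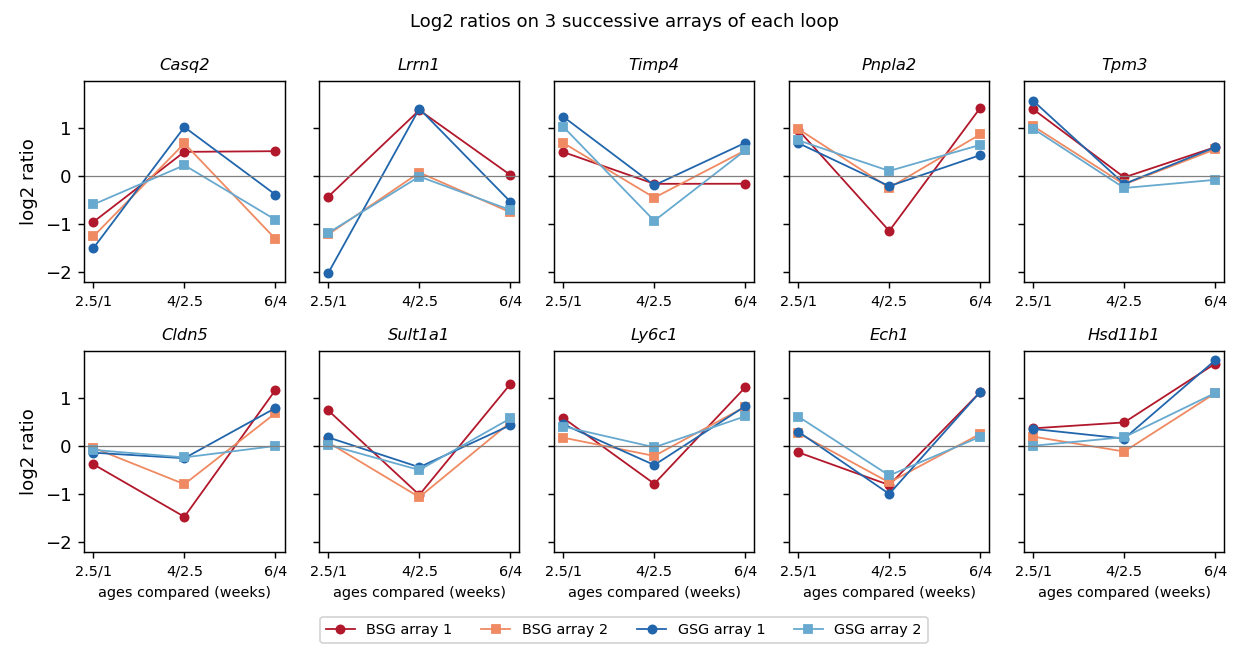
Log2 ratios (y axis) of 10 genes on 3 successive arrays of each loop (x axis, ages compared in weeks), with red lines for BSG and blue lines for GSG. Casq2 and Lrrn1 go up from the first to the second step, Timp4, Pnpla2 and Tpm3 go down, and Cldn5, Sult1a1, Ly6c1, Ech1 and Hsd11b1 go up from the second to the third.

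Of the 35 oligonucleotides of macrophages and phagocytes, 1 passed against the following step, and it was lower here than in that step. The inflammation genes of the study did not pass in either comparison. Their median was 0.05 from 1 to 2.5 weeks, 1.16 from 2.5 to 4 weeks and 0.66 from 4 to 6 weeks. *Clec7a* had log2 ratios of -0.29, -0.06, -0.70 and -0.11 before 2.5 weeks, all below those after it (0.90 or more), with a difference of 1.66 ± 0.50 (limma, adjusted p = 0.204). *Ccl8* had means of -0.23, 1.22 and 1.18 over the 3 steps, and *Ccl2* of -0.56, 2.11 and 0.12. From 4 to 6 weeks *Ccl2* had -0.98 and -1.38 in BSG and 0.65 and 2.20 in GSG. This strain difference was not tested, and the same 4-week mice enter the ratios of both steps.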

How the data were processed

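Quadriceps RNA of BSG and GSG mice was amplified to cRNA by the authors and hybridised in closed loops to dual-channel arrays of a library of long oligonucleotides, each oligonucleotide printed in duplicate. The authors read the spots with GenePix, normalized them for spatial, dye and between-array effects with all.norm (smida), and deposited 1 log2 ratio per spot. Base 2 and Cy5 over Cy3 are assumed, since neither was stated. Normalization across arrays can hide a shift of all genes.

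Each oligonucleotide's 2 spots were averaged (16416 spots, 8129 oligonucleotides, 6752 with 1 gene symbol, 7 with several, 1370 with none; 80 pairs of controls were averaged). limma 3.58.1 in R 4.3.3 was fitted to all 36 arrays with 18 coefficients, 1 for each strain and pair of ages (18 residual degrees of freedom), followed by eBayes and Benjamini-Hochberg adjustment at 0.05. Replicates are separate mice, but neighbouring arrays of a loop share a mouse, which this fit leaves out. The fit was tested on simulated data. Alternatives were the 4 arrays alone, a loop model of the study with and without a dye term, centring, scaling, single spots, duplicateCorrelation, array weights, no moderation, named oligonucleotides only, a replicate block and leaving out each array. A filter on spots 1 or more apart was added after seeing the data.

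Named were, in each direction, up to 15 genes that passed with 1 sign on all 4 arrays (filled to 8 by the smallest p), up to 4 members of each described list by p, genes of the study, and up to 6 genes for each difference by p. Genes outside the rule are said to be so. The arrays and the 39 gene lists were chosen with earlier results of these data known. Figures were drawn with matplotlib 3.10.9.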

Additional observations from a re-analysis of the deposited data

Results flagged for a closer look

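Of 108 genes named in the report and put to this check, 8 had an array that stood apart from the other 3. The gap was more than Dixon's critical value, which chance exceeds in about 1 of 20 groups. *Braf* and *Ccl25* among them had been named for their values on GSG array 1. BSG array 1 was the highest for *Col3a1* (2.31) and the lowest for *Mlycd* (-1.22), and BSG array 2 was the lowest for *Myog* (-0.11). GSG array 1 was the highest for *Tnnt2* (1.44), *Braf* (3.41) and *Ccl25* (3.14) and the lowest for *Pecam1* (-2.44). GSG array 2 was the lowest for *Rpl22* (-2.05). The duplicate spots differed by 6.25 for *Braf*, 5.73 for *Ccl25*, 4.03 for *Pecam1* and 3.87 for *Rpl22*, but by 0.153 for *Col3a1*. What part the spots had in these values was not tested.

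*Lag3* differed between the strains by 1.18 on the log2 scale (GSG minus BSG, limma, adjusted p = 0.0244), in a test of the difference itself. On GSG array 1 its spots read -0.05 and 2.41, and the call was lost under several alternatives, the filter on spots and the replicate block among them.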

How the results depend on the processing

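Over both strains 20 oligonucleotides passed. The number was 4 with the 4 arrays alone (2 with a strain term), 1 in the loop model of the study, 9 with a dye term in it, 46 with scaled arrays, 31 with second spots, 202 with duplicateCorrelation, 7 with array weights, 3 without moderation, 0 with named oligonucleotides only and 10 with the filter on spots (0 of the 14 named genes with the 4 arrays alone and in the loop model without the dye term), and it ran from 3 to 222 when 1 array was left out (3 without BSG array 1, 222 without BSG array 2, 33 without GSG array 1 and 105 without GSG array 2). The cause was not tested. Leaving out 1 array left its group with 1 array, and a similar count does not mean that the same oligonucleotides passed. The low end of the GSG range below came from leaving out a BSG array, which does not enter the GSG mean. In BSG (0 passed) there was 1 with the dye term, 1 with scaling, 1 with second spots and 82 with duplicateCorrelation, and from 0 to 211 without 1 array. In GSG (41 passed) there were 0 with the 4 arrays alone, 4 in the loop model, 6 with the dye term, 75 with scaling, 121 with first spots, 2 with second spots, 6 without moderation, 20 with named oligonucleotides only and 1 with the filter, and from 41 to 120 without 1 array. The strain difference (1 passed) had 0 with the 4 arrays alone, in the loop model, with duplicateCorrelation, array weights and the filter, and from 0 to 84 without 1 array. The difference from the preceding step (11 passed) had 0 alone, 31 with scaling, 3 with first spots, 316 with duplicateCorrelation, 1 without moderation, 4 with named oligonucleotides only and 4 with the filter, and from 3 to 72 without 1 array. The difference from the following step (17 passed) had 0 alone, 8 with first spots, 7 with second spots and 431 with duplicateCorrelation, and from 0 (without BSG array 1) to 267 without 1 array.

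With a replicate block the counts were 17 over both strains, 2 in BSG, 36 in GSG and 0 for the strain difference. Numbers name loops within a strain, and deviations of same-numbered arrays correlated at 0.188 across oligonucleotides, so no pairing between strains was assumed. Array weights, the loop models and the block were not run for the differences between steps.

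Among 108 named genes 11 gene and setting pairs changed sign. With second spots the mean of both strains was -0.09 for *Basp1*, -0.15 for *Kl* and -0.33 for *Tsg101*. In both loop models *Tnnc2* had -0.07, *Dpp4* 0.02 and *Ei24* -0.22. With 1 array left out *Dpp4* ran from -0.51 to 0.11 (without GSG array 2) and *Ckm* from -1.33 to 0.38 (without BSG array 1). With 2 arrays a strain, changes of several SE could fail to pass. Over both strains, *Clec7a* (1.37 ± 0.31) and *Ccl8* (1.22 ± 0.28) did not (limma, adjusted p = 0.0646 and 0.07).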
